A study of Mus musculus with 4 samples.

Results

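Somatostatin, ghrelin and one partner gene of each were followed through mouse gut cells at 4 stages or treatments. The genes were Sst, Hhex, Ghrl and Mboat4, 4 of the 31054 features counted, and each was found as a row with that symbol in all 4 count matrices. Their levels were read in cells that had 500 or more detected genes and no more than 20% of UMIs from mitochondrial genes, where a UMI is the tag that lets each captured RNA molecule be counted once. This kept 4226 cells of embryonic day 12.5 (E12.5), 4602 cells of E17.5, 3788 adult cells and 3184 irradiated adult cells. Where 4 values follow each other they stand in that order, and where 3 do they are E17.5, adult and irradiated adult.

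Each of the 4 groups was 1 droplet library of intestinal epithelial cells isolated by flow sorting, and all 4 came from mice with the Bmi1-GFP genotype, a green fluorescent reporter of Bmi1. The E12.5 and E17.5 groups were embryos, the adult group was untreated as far as the labels say, and the fourth group was adult and irradiated. The labels give neither the dose and time of the irradiation, nor the number, sex and exact age of the animals, nor the sorting gates, which can set the share of any cell type. With 1 library per group there was no replicate and no test between groups. Every interval below is a 95% interval for counting error only, by the exact Poisson method for levels and the Clopper-Pearson method for shares of cells.

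The median depth of the kept cells was 18638, 11499, 3699.5 and 8786 UMIs. Between 6 and 12 barcodes were shared by any pair of libraries. The E17.5 library was not intestinal epithelium alone: 552 of its cells carried pancreatic acinar markers, 145 islet beta markers and 270 mesenchymal, smooth muscle or mesothelial markers. Clusters named tuft-like held 26.5% of the adult and 9.20% of the irradiated adult cells. An unnamed irradiated cluster of 232 cells (7.29%) was also led by tuft markers, Dclk1, Trpm5 and Avil among its leading genes, and is not in that share.

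Somatostatin is the peptide of D cells, which sit among other epithelial cells of the stomach, intestine and pancreatic islets and restrain the secretion of neighbouring endocrine cells. Hhex encodes a homeodomain transcription factor known from early foregut, liver and pancreas development and from the D cell lineage, where it acts upstream of Sst. Ghrelin is a hunger-linked hormone made mostly in the stomach and, at lower numbers, in the intestine and fetal pancreas. It becomes active on its receptor only after a fatty acid is attached to one serine, and Mboat4 encodes the membrane-bound acyltransferase that does this, also called ghrelin O-acyltransferase.

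In the GENCODE M21 annotation of GRCm38 all 4 were protein-coding. Sst (ENSMUSG00000004366) lay on chromosome 16 from 23889573 to 23890958 on the minus strand, and Hhex (ENSMUSG00000024986) on chromosome 19 from 37434810 to 37440731 on the plus strand. Ghrl (ENSMUSG00000064177) lay on chromosome 6 from 113716119 to 113719880 on the minus strand, overlapped on the other strand by the antisense gene Gm26982 and by Gm44033. Mboat4 (ENSMUSG00000071113) lay on chromosome 8 from 34115030 to 34125182 on the plus strand, overlapped by the antisense gene Gm39158. Whether the counting used strand is not given in the sources used here, so a part of the Ghrl and Mboat4 counts could belong to these overlapping genes.

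The coding stretches are shown because they encode the 2 peptides that the hormone receptors bind, of which ghrelin is acylated by the partner enzyme. The somatostatin-14 stretch is the last 14 codons of the 116-codon Sst-201 transcript, with the codons of its 2 cysteines, at positions 3 and 14 of the peptide, in capitals; these residues close the peptide into a ring. The ghrelin stretch is codons 24 to 51 of the 117-codon Ghrl-201 transcript, with the codon of serine 3, the residue acylated by the Mboat4 enzyme, in capitals. Both were read from the GENCODE M21 transcripts and run 5′ to 3′.
Sst, somatostatin-14: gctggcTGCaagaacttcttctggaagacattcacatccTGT
Ghrl, ghrelin: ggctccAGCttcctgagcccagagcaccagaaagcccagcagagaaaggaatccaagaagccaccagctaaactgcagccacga

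The Sst promoter is shown for the palindromic cyclic AMP response element, TGACGTCA, by which this gene is known. RefSeq's table on GRCm38.p6 held 3 of the 4 genes, and the window printed is chr16:23890845-23891094, the 250 bases before the Sst start on the minus strand, with the element in capitals. It began 48 bases before this RefSeq start. The GENCODE gene given above reaches 23890958, inside the window, so the element lies within that gene. Searched on both strands, TGACGTCA was in 508 of 32851 windows of this length (1.55%) and not in those of Hhex or Ghrl. The homeodomain core TAAT was found in the Sst window and in 54.9% of all windows.
Sst promoter: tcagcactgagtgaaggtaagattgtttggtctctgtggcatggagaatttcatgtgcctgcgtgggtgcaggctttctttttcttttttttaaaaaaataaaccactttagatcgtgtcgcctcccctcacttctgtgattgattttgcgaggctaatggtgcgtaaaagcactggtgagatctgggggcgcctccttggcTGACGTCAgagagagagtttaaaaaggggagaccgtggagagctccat

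Sst RNA was almost absent at E12.5 and abundant in the other 3 libraries. In counts per 1000000 UMIs summed over all kept cells (CPM), Sst stood at 0.0337, 2102, 7287 and 9809. The E12.5 value was 3 UMIs in 2 of 4226 cells. Ghrl showed the same step but no further order, at 2.99, 4553, 3833 and 6156 CPM.

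The partner genes were far less abundant and spanned a narrower range. Hhex was at 7.61, 29.2, 32.3 and 47.7 CPM. Mboat4 was at 2.34, 9.14, 6.64 and 11.4 CPM. Both partners were present at E12.5, with 678 and 208 UMIs, beside 3 UMIs of Sst and 266 of Ghrl.

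On the log2(CPM + 1) scale, all 4 genes were at least 2-fold higher at E17.5 than at E12.5, by 10.99 for Sst (interval 10.90 to 11.04), 10.16 for Ghrl, 1.81 for Hhex and 1.60 for Mboat4. Among 14607 genes with 50 or more UMIs in one of the 2 libraries, 15.9% were at least 2-fold higher and 16.2% lower, 32.2% together. Between E17.5 and the adult, Sst alone of the 4 passed 2-fold, at 1.79; of all genes 14.1% were higher and 15.2% lower by that much, 29.3% together. Hhex (0.14), Ghrl (-0.25) and Mboat4 (-0.41) did not, and with 1000 genes and 10% mitochondrial UMIs as limits Ghrl (0.38) and Mboat4 (0.02) were above 0. The adult values depended on how cells were weighted: when every cell's own CPM was averaged in place of summing UMIs, the differences became 0.32 for Sst, -1.03 for Hhex, -1.70 for Ghrl and -1.38 for Mboat4.

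In summed UMIs none of the 4 was 2-fold different between the irradiated and the untreated adult, where 8.4% of genes were (3.07% higher and 5.33% lower). The irradiated library was the higher for each, by 0.43 for Sst, 0.55 for Hhex, 0.68 for Ghrl and 0.70 for Mboat4. Sst lost this direction, at -0.07, under the stricter filter on cells (1000 genes, 10% mitochondrial UMIs). Averaging each cell's CPM took Ghrl past 2-fold, to 1.03. These 2 libraries also differed in makeup, depth and the share of tuft-like cells, and more cells of a type and more RNA per cell cannot be told apart from totals.

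**Figure D1:**
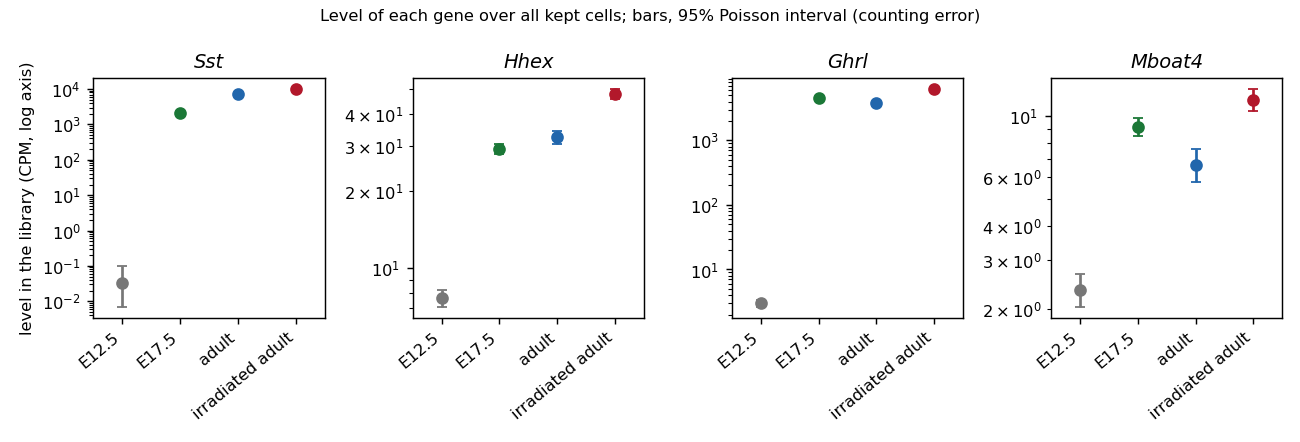
Level of each gene over all kept cells of a library, in CPM on a log axis whose range differs between panels, with 95% Poisson intervals. Sst and Ghrl were within a few CPM of 0 at E12.5 and above 2000 CPM in the other 3 libraries, while Hhex and Mboat4 stayed within 2.3 to 48 CPM throughout.

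Cells with at least 1 Sst or Ghrl UMI were too many to be hormone cells. An Sst UMI was present in 0.0473%, 14.5%, 59.4% and 78.8% of cells. With each cell thinned to 2000 UMIs the adult shares were 34.1% and 35.7%. Tuft-like cells, which should not make somatostatin, carried Sst in 33.0% and 38.5% of thinned cells, so these shares were at background.

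Ghrl stood above this background by less than its totals would show. Of cells before thinning 41.0%, 49.4% and 81.0% had a Ghrl UMI. After thinning, 22.1% of cells did at E17.5, against 8.46% of acinar-like cells, and 31.8% in the adult, against 22.8% of tuft-like cells. The irradiated adult had 1340 of 2679 thinned cells with Ghrl, against 35.2% of tuft-like cells. The partner genes gave little background: in adult tuft-like cells Hhex was in 1.10% and Mboat4 in 0.399% of cells without thinning, at a median of 4122 UMIs. Over all adult cells these shares were 4.46% and 3.17%.

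A cell was therefore called Sst-high or Ghrl-high when the hormone took at least 1% of its UMIs, with at least 10 UMIs. At E12.5 there were 0 Sst-high of 4226 cells, which allows a share of up to 0.0873%. Their number was 172 of 4602 cells at E17.5 (3.74%, interval 3.21 to 4.33), 143 of 3788 in the adult (3.78%, 3.19 to 4.43) and 235 of 3184 in the irradiated adult (7.38%, 6.50 to 8.34). These few cells held 99.1%, 98.4% and 98.5% of all Sst UMIs in their libraries.

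Of the E12.5 cells 1 was Ghrl-high. The later libraries held 507 (11.0%), 192 (5.07%) and 369 (11.6%) such cells. They held 96.2%, 90.7% and 89.5% of the Ghrl UMIs of the last 3 libraries. Somatostatin took a larger part of its cells than ghrelin did in each later library: the median Sst-high cell gave 12.4%, 17.1% and 15.5% of its UMIs to Sst, and the median Ghrl-high cell gave 5.25%, 2.87% and 2.75% to Ghrl. The highest single cells reached 37.9% for Sst and 49.5% for Ghrl.

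The boundary at 1% was sharper for Sst than for Ghrl. Between 0.5% and 1% lay 8, 17 and 33 cells for Sst and 84, 66 and 149 cells for Ghrl in the E17.5, adult and irradiated adult libraries. Between 1% and 2% lay 14, 16 and 19 cells for Sst and 88, 61 and 133 for Ghrl. High cells are thus a range of a continuous value and not a cell type, most of all for Ghrl. The stricter filter on cells (1000 genes, 10% mitochondrial UMIs) moved the adult shares to 5.94% for Sst and 9.58% for Ghrl. Over all alternatives the Sst-high share of the irradiated adult lay between 5.60% and 8.32%. The 2 adult libraries were thus closer in their Sst-high shares under that filter.

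Clusters built without the 4 genes placed these cells with the endocrine cells. Of Sst-high cells, 89.0%, 92.3% and 81.7% lay in clusters carrying enteroendocrine markers, here called endocrine-like, and of Ghrl-high cells 91.7%, 96.9% and 87.5%. In Sst-high cells at E17.5 all 13 enteroendocrine markers had UMIs, while 5 of 9 tuft markers, Trpm5 among them, had none. Marker sums were compared with endocrine-like cells high for neither hormone (951, 2037 and 1390 cells). In later comparisons the other endocrine-like cells are all those not high for the hormone named. The enteroendocrine markers summed to less of the UMIs in Sst-high cells, 0.709% against 2.37%, 0.728% against 2.87% and 1.41% against 3.22%. Ghrl-high cells were also low in them, at 0.741%, 1.02% and 1.59%. The 7 islet beta markers, Iapp among them, summed to more in Sst-high cells, 0.981% against 0.189%, 0.884% against 0.00221% and 0.923% against 0.00291%. In the adult libraries Iapp gave nearly all of this, at 8829 and 9228 CPM, and Ins1, Ins2, Nkx6-1 and G6pc2 were at 0. All 8 enterocyte markers also had UMIs in Sst-high cells at E17.5. The 7 Paneth markers summed to 2.98% against 0.221% after irradiation, while the median cell stood in the opposite order, at 0.157% against 0.202%. The part of these markers in the comparisons of Sst-high cells that follow was not tested. In the 2 adult libraries all 9 tuft markers had UMIs in Sst-high cells and in endocrine-like cells high for neither hormone. They summed to 0.0265% and 0.0833% of UMIs in Sst-high cells, beside 0.0183% and 0.0168% in the others. The median cell stood in the opposite order, at 0.00734% and 0.0122% beside 0.00816% and 0.0141%.

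Hhex was concentrated in the Sst-high cells of every library that had them. At E17.5 its level was 842 CPM in Sst-high cells and 22.9 CPM in the other endocrine-like cells. In the adult it was 722 against 2.63 CPM, and in the irradiated adult 635 against 2.38 CPM. These are log2 differences of 5.14 (interval 4.88 to 5.41), 7.64 (7.17 to 8.10) and 7.56 (7.16 to 7.95).

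Most Sst-high cells had Hhex RNA, and nearly all of them did at E17.5. A Hhex UMI was found in 96.5%, 84.6% and 85.1% of Sst-high cells against 3.88%, 1.02% and 2.36% of other endocrine-like cells. In the adult the 2 kinds of cell differed in depth, with medians of 9163 and 3132 UMIs, which acts on the shares but not on the CPM. Among genes with 50 or more UMIs in one of these kinds of cell, 11.5%, 15.1% and 10.7% differed by at least 2-fold, with 3.32%, 4.95% and 3.63% higher in Sst-high cells.

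Hhex also went with how much Sst a cell had. In cells with 1% to 3% of their UMIs from Sst, Hhex was at 516, 209 and 94.6 CPM. From 3% to 10% it was at 795, 387 and 340 CPM, and from 10% upward at 985, 889 and 868 CPM. The 3 libraries lay close together in the last range and apart in the lower ones, where the bins held 24 to 50 cells. Median depth was 6485, 2653 and 1725 UMIs in the range of 1% to 3% and 7137, 10794.5 and 11830 UMIs from 10% upward. In shallow cells few Sst UMIs make up 1%, and the part of depth and background in this order was not tested.

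Mboat4 followed Ghrl with a smaller contrast. It was at 100 CPM in Ghrl-high cells and 19.3 CPM in the other endocrine-like cells at E17.5, at 66.8 against 4.46 in the adult and at 60.0 against 9.44 in the irradiated adult. The log2 differences were 2.31 (1.96 to 2.67), 3.63 (3.06 to 4.20) and 2.55 (2.16 to 2.94). Of all genes 5.96%, 10.8% and 5.81% differed by at least 2-fold in this comparison, with 2.26%, 1.72% and 0.907% higher in Ghrl-high cells. A Mboat4 UMI was seen in 39.6%, 36.5% and 30.1% of Ghrl-high cells, so in most of them the enzyme's RNA was not detected at this depth.

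Along the range of Ghrl content, Mboat4 stood in the same order in all 3 libraries. With 0.3% to 1% of UMIs from Ghrl it was at 36.9, 21.6 and 20.4 CPM, with 3% to 10% at 94.4, 74.1 and 91.0 CPM, and with 10% or more at 204, 188 and 181 CPM. Below 0.1% it was at 2.06, 1.02 and 2.05 CPM. The last range held 134, 17 and 23 cells, so the adult values there rest on few cells.

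**Figure D2:**
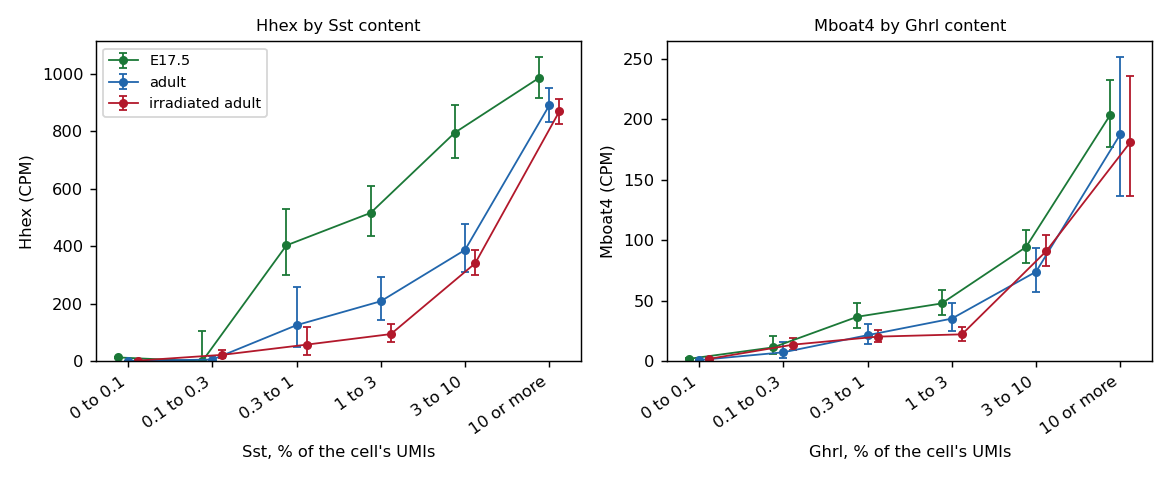
Hhex by the share of a cell's UMIs from Sst (left) and Mboat4 by the share from Ghrl (right), in CPM over the cells of each range with 95% Poisson intervals, for E17.5 (green), adult (blue) and irradiated adult (red). Both partners were highest in the cells with 10% or more hormone UMIs, at 985, 889 and 868 CPM for Hhex and 204, 188 and 181 CPM for Mboat4; ranges of 0.1 to 1% of Sst at E17.5 held 7 and 14 cells.

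The pairs were not exclusive. Mboat4 was also higher in Sst-high than in other endocrine-like cells, at 126 against 41.4 CPM at E17.5, 66.9 against 8.80 in the adult and 82.8 against 12.2 in the irradiated adult. Hhex in Ghrl-high cells was at 153 against 86.4 CPM at E17.5, where the difference of 0.82 did not reach 2-fold, at 261 against 34.5 in the adult and at 178 against 64.2 in the irradiated adult. Many cells were high for both hormones, and the next values take those cells apart.

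Both hormones were high in 113, 69 and 107 cells. These were 65.7%, 48.3% and 45.5% of the Sst-high cells and 22.3%, 35.9% and 29.0% of the Ghrl-high cells. The share of Sst-high cells depended on the level asked for in the adult libraries, where it was 69.9% and 62.7% at 0.3% of UMIs and 31.1% and 26.1% at 3%. Scrublet, which scores likely pairs of cells in 1 droplet, put 8.85%, 5.80% and 13.1% of them (10, 4 and 14 cells) among the highest scores that would be removed, which were 4.19%, 5.04% and 4.81% of all kept cells. Of cells high for Sst alone 1.69%, 13.5% and 10.9% were among them, and of cells high for Ghrl alone 4.82%, 3.25% and 6.87%. Removing the highest scores left 64.0%, 50.4% and 44.9% of Sst-high cells high for both. The median depth of cells high for both, 7336, 10399 and 12813 UMIs, lay between that of cells high for Sst alone, 6115, 5071.5 and 10820 UMIs, and that of cells high for Ghrl alone, 9021, 13343 and 15589 UMIs.

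Hhex followed Sst and not Ghrl. In cells high for both it was at 747, 819 and 677 CPM, and in cells high for Sst alone at 1067, 613 and 597 CPM. In cells high for Ghrl alone it was at 6.58 CPM (8 of 394 cells), 0.653 CPM (1 of 123 cells) and 2.05 CPM (8 of 262 cells).

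Mboat4 was highest where both hormones were high. It stood at 164 CPM (interval 140 to 192) in cells high for both, 84.2 (75.4 to 93.8) in cells high for Ghrl alone and 36.0 in cells high for Sst alone at E17.5. The adult values were 92.5, 54.9 and 38.0 CPM and the irradiated adult values 103, 44.8 and 64.7 CPM. Ghrl itself was at 116817 CPM in the cells high for both and 56416 CPM in those high for Ghrl alone at E17.5, but at 39461 and 54093 CPM in the adult and at 34747 and 46122 CPM in the irradiated adult. In the adult libraries the kind of cell with more Mboat4 was thus not the kind with more Ghrl.

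Ghrl in Sst-high cells took separate ranges at E17.5. Of 172 cells, 51 had under 0.03% of their UMIs from Ghrl, 7 had 0.03% to 1% and 105 had over 3%. In the adult libraries the values ran without a gap, with medians of 0.930% and 0.776% and upper quartiles of 3.02% and 2.76%, and 98.6% and 98.7% of Sst-high cells had a Ghrl UMI. The total of Ghrl in adult tuft-like cells was 200 CPM in the adult and 291 CPM in the irradiated adult, against 22981 and 17961 CPM in Sst-high cells, so the level there was well above background.

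**Figure D3:**
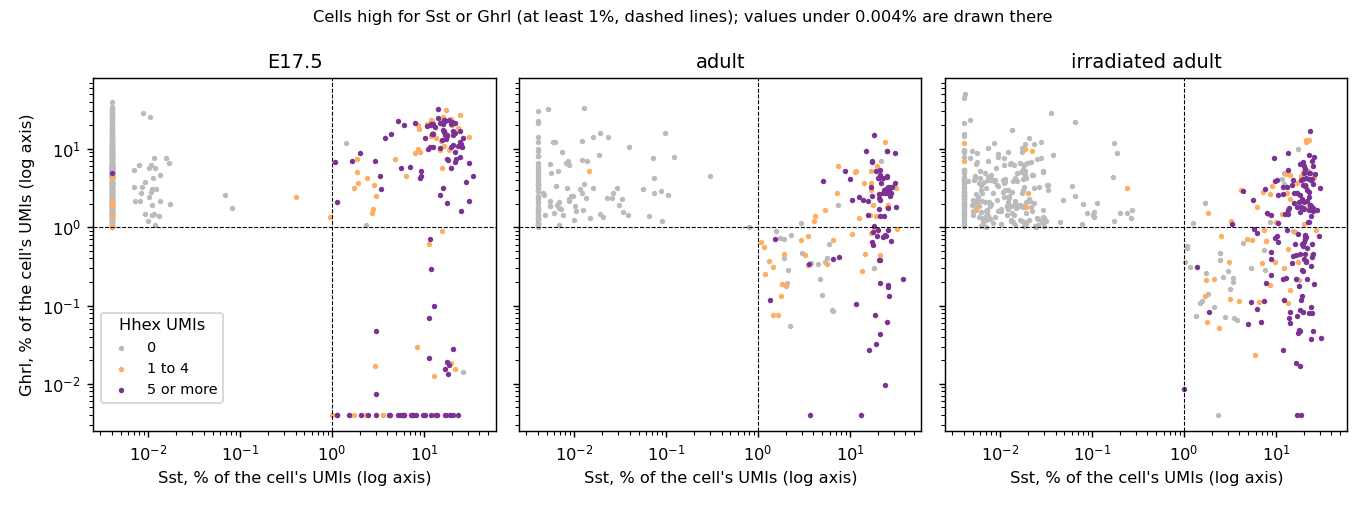
Each point is a cell high for Sst or Ghrl, placed by the percent of its UMIs from Sst and from Ghrl on log axes and coloured by its Hhex UMIs. At E17.5, 51 Sst-high cells lie under 0.03% of Ghrl and 105 above 3%, while the adult libraries fill the range between; cells without Sst are nearly all without Hhex.

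At E17.5 the cells high for Sst alone differed from those high for both in other hormones. The 59 cells high for Sst alone had 3454 CPM of Ppy, the gene of pancreatic polypeptide, against 16.4 CPM in the 113 cells high for both. The insulin genes Ins1 and Ins2 were at 1074 and 1719 CPM against 16.4 and 41.0 CPM, and Pcsk2, a prohormone convertase, at 1124 against 51.3 CPM. Pyy, the gene of peptide YY, was at 51799 against 5415 CPM. Of the 10 hormone genes tested, 4 were at least 2-fold higher in cells high for both and 5 lower, where of 2746 genes 8.23% were higher and 4.44% lower (12.7% together).

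Some genes were much higher in cells high for both, and Asic5 and Apom were nearly absent from the others. Asic5, which encodes a sodium channel opened by bile acids, was at 592 CPM against 2.40 CPM (1 UMI), and Apom, an apolipoprotein gene, at 415 against 2.40 CPM. Gip, the incretin gene, was at 1745 against 88.7 CPM, and the absorptive genes Fabp1 and Rbp2 at 1419 and 296 against 83.9 and 19.2 CPM. The 8 enterocyte markers, Fabp1 among them, took 0.0312% of UMIs in the median cell high for both, beside 0.359% in the sum. The Fabp1 total thus did not describe the median cell. Removal of the cells with the highest Scrublet scores left Asic5 at 731 against 2.57 CPM and Ppy at 20.8 against 3695 CPM. These genes were the extremes of the list and were chosen after their values were seen.

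Cdx2, an intestinal homeobox gene, had a UMI in 78 of 113 cells high for both and in 10 of 59 high for Sst alone (175 and 43.2 CPM). Nkx6-1, a gene of pancreatic endocrine cells, had a UMI in 1 and 14 cells of these (1.03 and 52.7 CPM). Pdx1, shared by duodenum and pancreas, was at 117 and 165 CPM, a log2 difference of -0.50 that did not reach 2-fold. The 7 genes of the islet beta list summed to 0.878% and 1.22% of UMIs, while the median cell stood in the opposite order, at 0.956% and 0.615%. The enterocyte markers summed to 0.359% and 0.0626% (medians 0.0312% and 0.0140%), the goblet markers to 0.177% and 0.0189% (medians 0.0889% and 0%), and the 8 acinar markers to 0.0270% and 0.0726%, with Pnlip at 0 in both; their part in the difference was not tested.

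Clusters made without Sst, Ghrl, Hhex and Mboat4 kept these cells apart as well. One E17.5 cluster of 104 cells, led by Asic5 after Sst, held 94 of the cells high for both, with 157666 CPM of Sst, 143056 of Ghrl, 963 of Hhex and 183 of Mboat4. Another of 168 cells, led by Dbpht2, Pcsk2 and Fam159b beside Sst and Hhex, held 50 Sst-high cells and 2 high for both, with 35611 CPM of Sst, 5411 of Ghrl, 578 of Hhex and 59.4 of Mboat4. Each adult library had 1 Sst cluster, with 129 of 143 and 182 of 235 Sst-high cells.

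Of the other hormones, 0 of 7 differed by at least 2-fold in the adult, and 3 of 9 were higher and 1 lower in the irradiated adult. Ins1, Ins2 and Nkx6-1 had no UMI in any Sst-high cell there, and Asic5 was at 3168 CPM in cells high for both and 1566 CPM in cells high for Sst alone in the adult, and at 2147 and 1275 CPM in the irradiated adult. Iapp, the gene of amylin, was at 11006 and 6368 CPM and at 11431 and 7292 CPM. Of all genes 6.09% and 2.31% differed by at least 2-fold between the kinds, with 0.805% and 0.501% higher and 5.28% and 1.81% lower in cells high for both.

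Markers of other cells moved with this comparison. In cells high for Sst alone the 8 enterocyte markers summed to 1.12% of UMIs in the adult against 0.0645% in cells high for both, and the 7 Paneth markers to 5.49% against 0.136% in the irradiated adult. The median cell differed less, at 0.0752% against 0.0435% and 0.187% against 0.130%. Their part in the result was not tested.

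The acylating enzyme was not spread evenly over Ghrl-high cells. In the 112 Ghrl-high cells at E17.5 that also gave 1% of their UMIs to Nts, the neurotensin gene, Mboat4 had 3 UMIs in all (2.80 CPM, interval 0.577 to 8.18), against 127 CPM in the 395 others. The log2 difference was -5.08 (-6.47 to -3.67). In the irradiated adult none of the 37 cells with Nts had a Mboat4 UMI (upper bound 7.65 CPM), against 66.0 CPM in the 332 others. With 3 UMIs set in place of 0 this is 10.6-fold lower, and the interval of the log2 difference ran from -6.22 to -2.79.

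In the adult the contrast was smaller and rested on 18 cells with Nts, at 28.7 CPM (7 UMIs) against 71.5 CPM, a log2 difference of -1.29 (-2.76 to -0.03). It depended on the level asked for: at 0.3% of UMIs it was -1.98 with 51 cells, and at 3% the 3 cells left had no Mboat4 UMI, so that the -6.66 obtained there rests on the pseudocount. Ghrl itself was lower with Nts, at 38487 against 76671 CPM at E17.5, 25433 against 52367 in the adult and 28873 against 44601 in the irradiated adult. Within cells of 1% to 3% Ghrl, Mboat4 was at 1.86 against 66.6 CPM at E17.5, 33.2 against 35.8 in the adult and 0 (25 cells, upper bound 11.8) against 25.1 in the irradiated adult. At matched Ghrl content the adult values, the first from 15 cells, lay inside each other's intervals, and the others did not. The comparison with Nts was chosen after the values were seen.

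Other second hormones gave graded values. Ghrl-high cells that also reached 1% of Cck, the cholecystokinin gene, had 43.1, 30.3 and 29.1 CPM of Mboat4, against 164, 119 and 146 CPM without it. With Sct, the secretin gene, it was at 76.4, 16.6 and 9.90 CPM, against 152, 125 and 106 CPM without. With Gcg, the glucagon gene, it was at 97.6, 84.3 and 47.0 CPM, against 100, 63.7 and 64.0 CPM without. These sets of cells overlap, and Ghrl was lower with Cck and with Sct in each library, for example 37481 against 58990 CPM with and without Cck in the irradiated adult.

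**Figure D4:**
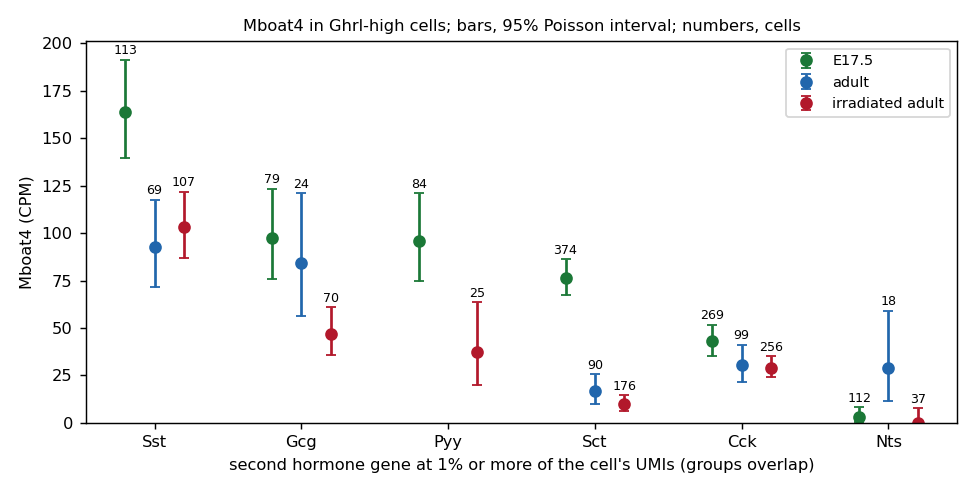
Mboat4 in Ghrl-high cells that also gave at least 1% of their UMIs to a second hormone gene, in CPM with 95% Poisson intervals; the numbers of cells stand above the points and groups under 10 cells are not drawn. Cells with Sst lie at 164, 92.5 and 103 CPM and cells with Nts at 2.80, 28.7 and 0 CPM for E17.5, adult and irradiated adult.

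The clusters showed the same unevenness. At E17.5 a cluster led by Gcg and Ghrl had 58858 CPM of Ghrl and 174 of Mboat4, while one led by Cck and Gast, the gastrin gene, had 31313 and 10.9 CPM and one led by Nts had 20945 and 1.94 CPM. For each 1000 Ghrl UMIs these held 2.95, 0.349 and 0.0925 Mboat4 UMIs. The Gcg clusters of the adult libraries had 37408 and 40133 CPM of Ghrl with 53.6 and 56.5 CPM of Mboat4. The clusters of these libraries with much Cck and the least Gcg among those drawn, the Sst clusters apart, had 11747 and 14982 CPM of Ghrl with 4.74 and 1.46 CPM of Mboat4. Cck was as high in the Gcg clusters, at 108587 and 120273 CPM, as in these, at 109336 and 123397 CPM. Another irradiated cluster, with 137792 CPM of Cck and 5195 of Gcg, had 11115 CPM of Ghrl and 10.1 of Mboat4.

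**Figure D5:**
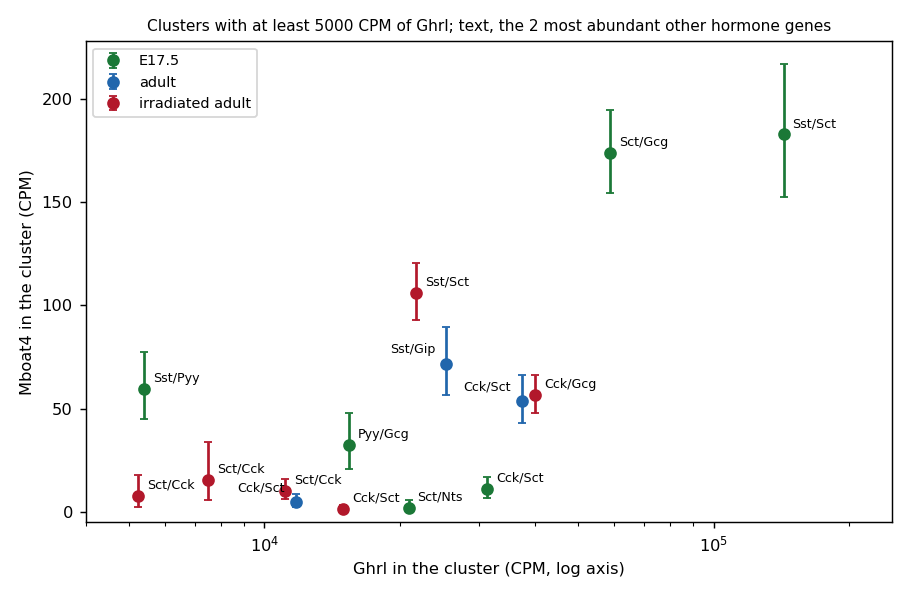
Mboat4 against Ghrl, both in CPM, for each cluster of the 3 later libraries with at least 5000 CPM of Ghrl; bars are 95% Poisson intervals for Mboat4, the horizontal axis is logarithmic, and the text names the 2 most abundant other hormone genes. The E17.5 clusters at 20945 and 31313 CPM of Ghrl lie under 11 CPM of Mboat4, below the Sst clusters of the adult libraries at 71.7 and 106 CPM.

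At E12.5 most Ghrl UMIs came from a small cluster. A cluster of 11 endocrine-like cells, led in abundance by Gcg and Pyy, held 230 of the 266 Ghrl UMIs of the library, and 2 of its cells held 159 and 59 of them. These 2 cells also had 141 and 76 UMIs of Ins1 and 157 and 490 of Gcg. Mboat4 had 12 UMIs in 5 of the 11 cells (60.4 CPM, 31.2 to 106), and Hhex none, which allows up to 18.6 CPM.

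Outside these cells Mboat4 and Hhex were still found at E12.5. Mboat4 had 196 UMIs scattered over 181 of the other 4215 cells (2.21 CPM), a level near 1 UMI per positive cell. Hhex had 678 UMIs in 300 cells, and 72.7% of the 161 cells of one cluster carried it, at 117 CPM. That cluster was led by Spp1, Cpa1, Dlk1 and Nkx6-1 and kept no name. A second unnamed cluster, led by Hoxb13 and Car2, had 30.6 CPM of Hhex.

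Hhex was also found outside the Sst clusters at E17.5. A cluster of 156 cells led by Tff2, Akr1b7 and Spp1 had 290 CPM of Hhex in 87.2% of cells, with 9.98 CPM of Sst and no Sst-high cell. Another of 124 cells led by Spp1 and Neurog3, the gene that starts endocrine differentiation, had 168 CPM of Hhex and 2014 CPM of Sst, with 3 Sst-high cells. In the adult libraries the highest Hhex level of a cluster other than the Sst cluster was in an unnamed irradiated cluster of low depth, at 36.4 CPM with 29 Sst-high cells.

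No receptor gene for somatostatin was at least 2-fold higher in the cells that make it. Of the 6 genes of the somatostatin list, 4 had 50 UMIs in Sst-high or other endocrine-like cells, and 3, 2 and 1 of these were at least 2-fold lower in Sst-high cells of the 3 libraries. Over all genes 8.22%, 10.1% and 7.04% were lower. Sstr5, a somatostatin receptor gene, was at 3.59 against 27.8 CPM, 9.67 against 30.5 and 9.54 against 45.6. The list's median log2 lay between -2.03 (E17.5) and -0.84 (irradiated adult), and that of all genes at -0.04 in both. Cort, which encodes the related peptide cortistatin, and Sstr4 were at or near 0.

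In Ghrl-high cells Sstr5 did not differ by 2-fold, at 21.9 against 25.2 CPM, 36.1 against 27.1 and 40.5 against 41.5. Sstr1 was lower in all 3 libraries, at 20.5 against 45.3, 41.4 against 88.5 and 44.5 against 133 CPM. Of the 12 receptor genes described on ghrelin cells, 6, 6 and 8 had enough UMIs, none was 2-fold higher, and 2, 2 and 1 were lower, where 3.71%, 9.05% and 4.9% of all genes were. Adrb1, the adrenergic receptor described on gastric ghrelin cells, had 2, 6 and 10 UMIs in Ghrl-high cells. Ghsr, the ghrelin receptor, had no UMI in any library, where 3 UMIs would be 0.0940 CPM in the shallowest.

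Pcsk1, the convertase that releases ghrelin from its precursor, was at 222 against 359 CPM in Ghrl-high and other endocrine-like cells at E17.5, 425 against 509 in the adult and 428 against 537 in the irradiated adult, under 2-fold in each. In Sst-high cells Pcsk2 was higher, at 373 against 140, 32.0 against 12.8 and 39.2 against 6.10 CPM. The E17.5 value came mostly from cells high for Sst alone, as given above. Cpe, carboxypeptidase E, was lower in Sst-high cells, at 437 against 1226, 631 against 1304 and 679 against 1645 CPM.

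Among transcription factors of endocrine cells, Pdx1 was the one at least 2-fold higher in Sst-high cells of all 3 libraries. Of 18, 16 and 17 factors with enough UMIs, 2, 1 and 2 were at least 2-fold higher and 9, 8 and 8 lower, with medians of -0.91, -0.90 and -0.90. Of all genes 3.32%, 4.95% and 3.63% were higher and 8.22%, 10.1% and 7.04% lower. Pdx1 was at 131 against 53.2 CPM, 139 against 29.3 and 132 against 19.8. Isl1 was at 915 against 439, 917 against 536 and 645 against 245 CPM, and Neurod1 at 120 against 522, 162 against 1050 and 280 against 957 CPM. Isl1 and Neurod1 are among the markers that named the endocrine-like clusters.

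In Ghrl-high cells 0, 1 and 1 of 18, 16 and 17 factors were 2-fold higher and 7, 5 and 4 lower, where 2.26%, 1.72% and 0.907% of all genes were higher and 3.71%, 9.05% and 4.9% lower. Lmx1a, a factor of serotonin cells, was at 4.67 against 79.7 CPM, 4.46 against 92.3 and 15.1 against 136. Rfx6 was at 26.2 against 57.3, 20.5 against 179 and 24.6 against 96.3 CPM. Neurog3 was higher in the irradiated adult, at 14.6 against 0.792 CPM, but its 77 UMIs came from 2 cells.

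Most other hormones were lower in Sst-high cells. Of 14, 10 and 10 hormone genes with enough UMIs, 9, 8 and 8 were at least 2-fold lower and 3, 1 and 1 higher, beside 8.22%, 10.1% and 7.04% of all genes lower and 3.32%, 4.95% and 3.63% higher. Gcg was at 16.5 against 10928 CPM at E17.5, 29.0 against 3407 in the adult and 1754 against 8472 in the irradiated adult. Cck was at 1042 against 42423, 425 against 36103 and 7185 against 66804 CPM. Both contrasts were smaller in the irradiated adult. Iapp was the hormone gene higher in all 3, at 8914 against 1269, 8829 against 17.9 and 9228 against 23.9 CPM.

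In Ghrl-high cells at E17.5, 1 of 14 hormone genes was at least 2-fold higher and 6 lower, beside 2.26% and 3.71% of all genes. In each adult library 3 of 10 were higher and 3 lower, beside 1.72% and 9.05% of all genes in the adult and 0.907% and 4.9% after irradiation. Gip was lower throughout, at 2044 against 18698 CPM, 1900 against 88521 and 2050 against 51996, and so was Tph1, the serotonin synthesis gene, at 98.2 against 647, 223 against 1918 and 244 against 1568 CPM. Gcg was at 9978 against 8781, 10460 against 1736 and 16381 against 4327 CPM. The goblet markers summed to 1.06% of UMIs in Ghrl-high cells and 0.621% in endocrine-like cells high for neither hormone at E17.5. Their part in these values was not tested.

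By the largest ratio in the least of the 3 libraries, the genes that set Sst-high cells apart were Hhex, Asic5, Arg1, Iapp, Acot7 and Kcnk2. Asic5 was at 415 against 18.8 CPM at E17.5, 2416 against 27.6 in the adult and 1683 against 21.6 in the irradiated adult. Arg1, the arginase gene, was at 154 against 8.20, 240 against 23.0 and 175 against 7.81 CPM. Kcnk2, a background potassium channel gene, was at 61.1 against 1.38, 241 against 1.07 and 185 against 0.549 CPM.

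For Ghrl-high cells the same rule gave Cd177, Mboat4, Asic5, Sst, Ceacam10 and Maged2. Mboat4 was second of all genes that met the rule. Cd177 was at 56.8 against 6.22 CPM, 101.6 against 16.96 and 249 against 42.8, and Maged2 at 312 against 92.4, 193 against 29.6 and 164 against 53.2. In cells high for Ghrl alone Asic5 was at 8.60, 12.4 and 4.86 CPM.

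Across the 72 clusters of the 4 libraries, the pattern most like each gene was described by Pearson's r of log2(CPM + 10), with no test since clusters share a library and its depth. Sst was most like Asic5 (0.76), then Iapp, Tcta, Ghrl and A2ml1. Hhex was most like Stk36 (0.77), then Oxtr, Sez6l, Masp1 and Sez6, though at the finer resolution Stk36 was at 0.49. Ghrl was most like Cck (0.83), then Scg2, Pabpc1l, Itm2b and Scamp1, but over the 58 clusters without E12.5 Cck was at 0.71 and of these 5 only Pabpc1l (0.81) stayed among the nearest. Mboat4 was most like Gper1 (0.82), with Trp53cor1 and Nrsn1 also among its nearest. Among the 4 genes themselves r was 0.69 for Sst and Ghrl, 0.68 for Ghrl and Mboat4, 0.62 for Sst and Hhex, 0.58 for Hhex and Mboat4, 0.55 for Sst and Mboat4 and 0.39 for Hhex and Ghrl. Without E12.5 the same pairs were at 0.55, 0.76, 0.71, 0.65, 0.62 and 0.46.

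Bmi1 did not differ by 2-fold in Sst-high cells, at 24.4 against 20.6, 25.3 against 15.0 and 22.5 against 19.4 CPM. The reporter transcript eGFP had 3 UMIs in the Sst-high cells of E17.5 and 3 in those of the adult, with 26 and 25 in the other endocrine-like cells, too few to be compared. In the irradiated adult it was at 18.4 against 16.5 CPM.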

How the data were processed

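Single-cell RNA was measured with 10x Chromium version 3 chemistry in 4 libraries, 1 per group. The authors deposited raw UMI counts per gene and barcode, made with Cell Ranger 3.1.0 on mm10 per the submitters' processing notes; how barcodes were selected is not given in the sources used here. The lowest total was 500 UMIs. Kept cells summed to 89064972, 76926950, 31908663 and 41384037 UMIs. Levels are summed UMIs per 1000000 (CPM). With counts of 1 library per group no count model was fitted and no p-value is given.

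Cells were clustered in each library with scanpy 1.11.5 and leidenalg 0.10.2 (2000 variable genes without the 4 members, 30 components, 20 neighbours, resolution 1). Each cluster was given the class whose markers scored highest on average, from 0.5, with at least 3 markers at 50 CPM, and stayed unnamed if other markers led it. A cluster also stayed unnamed where its enteroendocrine and its tuft markers both scored 0.6 or more. These thresholds were set after the clusters had been seen. Doublets were kept in the main values. Scrublet's own threshold marked at most 0.174% of cells, so the alternative removed the highest scores at 0.8% per 1000 barcodes. Thinning to 2000 UMIs left out 571, 190, 686 and 505 cells. Scripts were tested on simulated data.

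The members, gene lists and tests were chosen with earlier results of these data known. Named genes are the members, the lists, the 5 genes most like each member over clusters, and the 6 genes with the highest least ratio in Sst-high and in Ghrl-high cells (20 UMIs, 10% of cells; mitochondrial, ribosomal, haemoglobin, sex-linked and predicted genes left out); a few of these genes are not reported here. edgeR 4.0.16 gave TMM factors for an alternative scale. Alternatives are in the closing section.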

Additional observations from a re-analysis of the deposited data

Results flagged for a closer look

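Barcodes left out by the limits of 500 genes and 20% mitochondrial UMIs also held hormone-high cells, above the level of none at E12.5 (0 of 990 left-out barcodes, for either gene). Sst-high barcodes were 0.635% of those left out at E17.5 (4 of 630), 2.52% in the adult (63 of 2499) and 3.59% in the irradiated adult (of 2812). Ghrl-high barcodes were 2.38% (15), 0.680% (17) and 1.67% (47). Their median mitochondrial share lay between 20.8% and 24.5%, just past the limit. In the adult libraries left-out barcodes held more Sst-high than Ghrl-high cells, the opposite order to the kept cells.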

How the results depend on the processing

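No paired analysis was possible because each group is 1 library. Of 96 alternative values for the partner genes, 93 kept their direction and their side of 2-fold, and the other 3, all for Hhex in Ghrl-high cells at E17.5, passed it. All 12 alternatives for Mboat4 with and without Nts kept theirs; these, and the restriction of hormone-high cells to endocrine-like clusters, were chosen after seeing the data. Their adult value reached -6.66 at 3% of UMIs, with 3 cells beside Nts, and lay between -1.98 and -1.31 otherwise. Of 84 values for log2 ratios between libraries, 78 kept their side of 2-fold, and 4 of these, all under 2-fold, changed sign: the stricter filter gave 0.38 (Ghrl) and 0.02 (Mboat4) for adult over E17.5 and -0.07 (Sst) for irradiated over untreated adult, and every barcode -0.01 (Hhex) for adult over E17.5. A pseudocount of 10 CPM gave 0.63 for Mboat4 at E17.5 over E12.5. The mean of each cell's CPM gave 0.32 (Sst), -1.03 (Hhex, reversed), -1.70 (Ghrl) and -1.38 (Mboat4) for adult over E17.5 and 1.03 for Ghrl in irradiated over untreated adult. TMM factors shifted every gene by 0.12 for E17.5 over E12.5, and by under 0.1 otherwise. Hormone-high shares moved with their definition. At 0.3% Ghrl-high cells were 13.8%, 7.87% and 17.7% (E17.5, adult, irradiated adult). At 3% they were 7.63%, 2.48% and 5.21%, and Sst-high cells 3.17% and 3.14% in the first 2. Over every barcode Ghrl-high cells were 9.98%, 3.32% and 6.94%, and Sst-high cells 5.60% in the irradiated adult. The stricter filter (1000 genes, 10% mitochondrial) gave 5.94% Sst-high and 9.58% Ghrl-high in the adult and 16.0% Ghrl-high in the irradiated adult. Cells high for both were 18.6% (at 0.3%) and 26.8% (at 3%) of Ghrl-high cells at E17.5, and 69.9% and 31.1% of Sst-high cells in the adult and 62.7% and 26.1% in the irradiated adult. The causes were not tested. Of 12 alternatives for r between the 4 genes, 1 moved, Sst and Ghrl without E12.5. Of 80 values for levels by library 43 moved beyond their counting interval, and of 48 for shares of cells with a UMI 42 did. Genes at least 2-fold apart between Sst-high and other endocrine-like cells numbered 1169, 1608 and 1178; with a minimum of 10 UMIs they were 2034 and 2424 in the first 2, and with 200 UMIs 547, 806 and 664. For Ghrl-high cells they were 571, 1135 and 627, then 1046 and 1712, and 219, 569 and 350. Counts of 0 to 3 UMIs, as for Mboat4 beside Nts, limit those contrasts.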
